A study of Mus musculus with 17 samples.

Results

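The Toll-like receptors of the mouse hippocampus are described here through 10 genes, Tlr1 to Tlr9 and Tlr13, taken by symbol from the 38355 gene identifiers that were counted. All 10 were found in the count tables. They were taken as a gene family and not by a threshold on their values, but with earlier results of these data known. The 17 libraries came from hand-dissected hippocampus of untreated wild type C57BL/6J mice and were made in a pair of independent experiments. In the single-end experiment mice aged 3 months (3M, 5 libraries) were compared with mice aged 24 months (24M, 6 libraries). In the paired-end experiment mice aged 3 months (3 libraries) were compared with mice aged 29 months (29M, 3 libraries), which had been bought at 24 months and kept until use. Each aged group was therefore set against its own 3M group. Age and library type cannot be told apart when 24M is compared with 29M.

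Toll-like receptors are membrane proteins of innate immunity that recognise molecules of microbes and of damaged cells. Tlr1, Tlr2, Tlr4, Tlr5 and Tlr6 act mainly at the cell surface, whereas Tlr3, Tlr7, Tlr8, Tlr9 and Tlr13 detect nucleic acids inside endosomes. Most of them signal through the adaptor Myd88 to NF-kappaB, while Tlr3 uses Ticam1, and Tlr4 uses both. In the brain microglia, the resident macrophages, are known as the main cells that express these receptors, and Tlr3 is also known from astrocytes and neurons.

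Promoter sequences from RefSeq (GRCm38.p6) were matched for 8 of the 10 genes, and Tlr4 and Tlr7 had no entry. Of the 4 genes called at either age (thresholds below), Tlr2 and Tlr13 are shown. Tlr2 was the gene called at 29M, and Tlr13 had the largest change of the genes tested at 24M. Each stretch runs 5′ to 3′ on the strand of the gene, begins 250 bases before the RefSeq start site and ends where the first exon annotated by GENCODE begins. The Tlr2 stretch lies at chr3:83841768-83841858 on the minus strand and the Tlr13 stretch at chrX:106143025-106143203 on the plus strand, and capitals mark matches to the NF-kappaB consensus.
Tlr2: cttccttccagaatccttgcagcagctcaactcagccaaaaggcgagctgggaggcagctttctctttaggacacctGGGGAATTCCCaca
Tlr13: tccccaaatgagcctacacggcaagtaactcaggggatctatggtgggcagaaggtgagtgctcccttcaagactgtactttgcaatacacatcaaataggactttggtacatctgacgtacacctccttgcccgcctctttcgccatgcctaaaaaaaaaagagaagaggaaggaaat
In the Tlr2 stretch 2 overlapping matches to the NF-kappaB consensus lay between -173 and -163 from the start site. The Tlr3 promoter held 1 match, from -211 to -202, and the Tlr13 promoter held none. Among all 32851 RefSeq promoters, 3.9% held such a match in the same 250 bases on either strand. Core motifs of the transcription factors IRF, STAT, PU.1 and AP-1 were searched as well, and none was matched in the Tlr2 or Tlr13 promoter. Their matches lay in promoters of Tlr1 (STAT and PU.1), Tlr6 (IRF), Tlr8 (STAT) and Tlr9 (AP-1). Of all promoters 2.98% held the IRF core, 7.02% the STAT core, 2.44% the PU.1 core and 6.75% the AP-1 core. These matches are a description of letters and show no binding.

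Between 9213474 and 28438296 reads were counted on genes per library. Levels are given in CPM, counts scaled to library size with TMM factors within each experiment. The 24M replicates 1 and 4 differed by less than the sampling noise (mean squared difference over binomial variance 0.406, against 1.23 or more in the other pairs of the 136 compared) and were counted as 1 sample, their mean, which leaves 5 samples at 24M. A pair of libraries stood apart in striatal or red blood cell genes. In 3M single-end replicate 4, 6 striatal genes summed to 394.8 CPM, against 93.6 to 163.9 CPM in the other 3M single-end samples. In 24M replicate 2, 5 red blood cell genes summed to 543.9 CPM, against 76.3 to 159.3 CPM in the other 24M samples. Choroid plexus genes varied within each group. In 3M single-end replicate 3 they summed to 2021 CPM, against 4834 to 8368 CPM in the other 3M single-end samples. They summed to 4602 to 7734 CPM at 24M, 3436 to 6281 CPM in 3M paired-end samples and 4067 to 6218 CPM at 29M. The Y-linked gene Ddx3y was between 44.2 and 90.9 CPM in every sample, and Xist did not exceed 4.24 CPM, which matters here because Tlr7, Tlr8 and Tlr13 lie on the X chromosome. Xist was at 1.97 ± 0.517 CPM in 3M single-end samples and 3.24 ± 0.784 CPM at 24M (SD, n = 5 each), and this difference was not called (thresholds below). In paired-end samples Xist did not exceed 0.252 CPM.

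All 10 genes were detected at low levels, and Tlr3 was far the most abundant. Per kilobase of exon, Tlr3 was at 3.65 ± 0.423 CPM in 3M single-end samples (SD, n = 5), 4.64 ± 0.405 at 24M (SD, n = 5), 3.35 ± 0.09 in 3M paired-end samples (SD, n = 3) and 4.08 ± 0.318 at 29M (SD, n = 3). In no group did its range overlap that of the next gene. Of the summed CPM of the 10 genes, Tlr3 made up 47.3% to 59.7% in every sample. Tlr7, Tlr2, Tlr13 and Tlr9 followed, with group means between 0.525 and 1.42 CPM per kilobase. Below them came Tlr4, with group means of 0.35 to 0.548 CPM per kilobase. In all groups but the 3M single-end group, the range of Tlr4 lay clear of Tlr1, the next gene. The least abundant were Tlr1, Tlr6, Tlr5 and Tlr8. Tlr8, the other receptor of single-stranded RNA beside Tlr7, was lowest in each group and was at 0.0186 CPM per kilobase in 3M single-end samples.

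**Figure D1:**
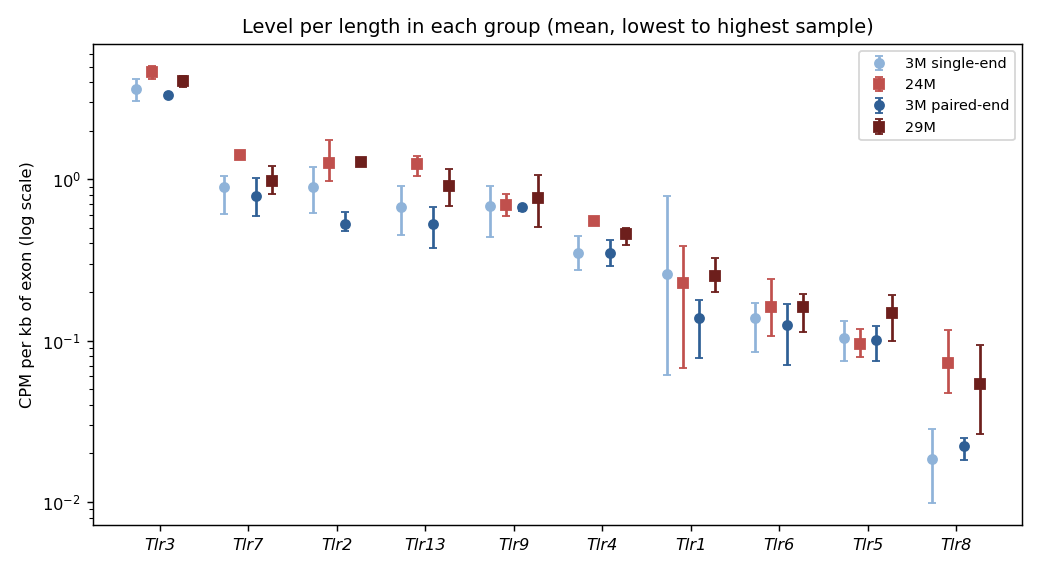
Level of the 10 Toll-like receptor genes per length, in CPM per kilobase of exon on a log axis, in the 4 groups; symbols are means and bars run from the lowest to the highest sample. Tlr3 lies above all other genes in each group, and Tlr8 has the lowest mean in each group.

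The order below Tlr3 was not the same in each group, and many neighbours could not be separated. In 3M single-end samples the ranges of Tlr2 and Tlr7 overlapped, as did those of Tlr7 and Tlr9 and of Tlr9 and Tlr13. At 24M Tlr7, Tlr2 and Tlr13 (1.42, 1.27 and 1.24 CPM per kilobase) overlapped one after the other, and Tlr13 lay above Tlr9 (0.69 CPM per kilobase) without overlap. In 3M paired-end samples Tlr2 (0.528 CPM per kilobase) ranked below Tlr9 (0.675) without overlap. At 29M Tlr2 (1.27 CPM per kilobase) ranked directly after Tlr3 and lay above Tlr7 (0.983) without overlap. The position of Tlr2 in the order thus differed between the 3M and 29M paired-end groups.

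At 24M 3 of the 8 genes that could be tested were called higher, namely Tlr4, Tlr7 and Tlr13, and 0 were called lower. To be called, a gene had to reach an adjusted p of 0.05 or less and a log2 fold change (log2FC) of 0.5 or more in size (edgeR's quasi-likelihood test, Benjamini-Hochberg adjustment over 15683 genes). Values after ± are SD over samples unless SE, the standard error of the fit, is named. Over all these genes 1.34% were called higher and 0.638% lower. Tlr5 and Tlr8 did not pass the filter on low counts. Of the 8 genes 7 had a log2FC above 0, against 49.2% of all genes tested, and the median was 0.41 against -0.003 over all genes. Tlr1 was the gene below 0, and no gene was lower at an unadjusted p under 0.05. DESeq2 without a prior on fold changes also called 3, and with a zero-centred prior it called 2, as the log2FC of Tlr4 was then 0.43. Since a gene can pass that filter through its higher group alone, these counts are a description of the genes tested.

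At 29M 1 of the 6 genes tested was called higher, Tlr2, and 0 were called lower, whereas 1.34% of all 15097 genes tested were called higher and 0.113% lower. Tlr1, Tlr5, Tlr6 and Tlr8 fell under the filter. All 6 genes tested had a log2FC above 0, against 49.4% of all genes, and their median was 0.36 against -0.002. No gene was called at both ages.

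**Figure D2:**
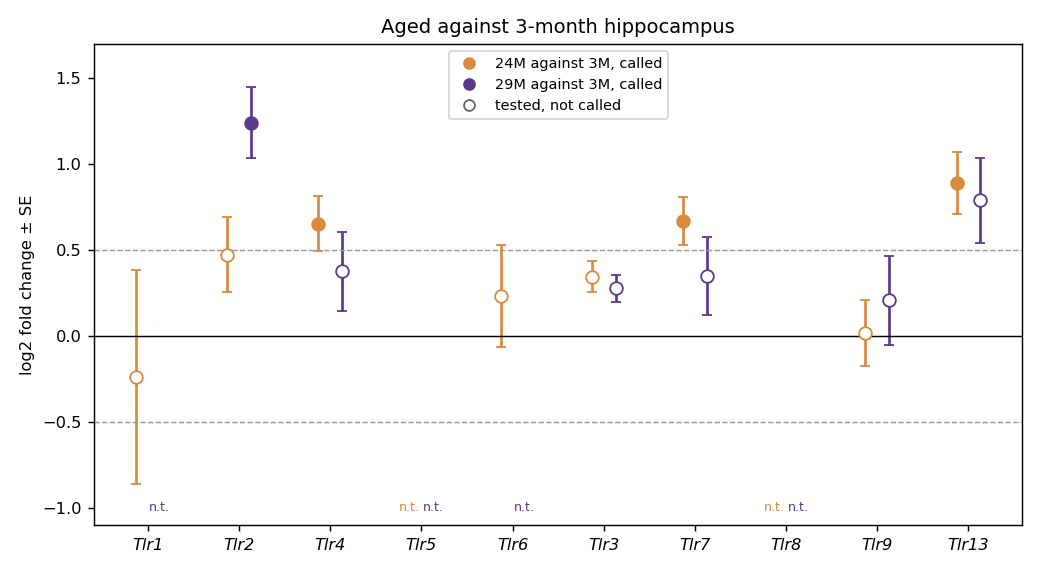
Log2FC with its SE (edgeR) of each Toll-like receptor gene at 24M and 29M against the 3M group of the same library type; filled circles were called, open circles were tested and not called, n.t. means not tested, and dashed lines mark the fold threshold of 0.5. Filled circles are Tlr4, Tlr7 and Tlr13 at 24M and Tlr2 at 29M.

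Among the receptors of the cell surface, Tlr2 (ENSMUSG00000027995, chromosome 3, 83836272 to 83841767 on GRCm38) recognises bacterial lipoproteins together with Tlr1 or Tlr6. In 3M paired-end samples Tlr2 was at 1.44, 1.89 and 1.44 CPM, and at 29M at 3.78, 3.80 and 3.92 CPM. All 29M samples lay above all 3M samples and within 0.14 CPM of each other. Tlr2 was 2.37-fold higher, a log2FC of 1.24 (SE 0.21, adjusted p = 0.00499, edgeR). Tlr2 was called in each of the 6 fits that left out 1 library, with an adjusted p between 0.0114 and 0.0308 (edgeR). With all 4 groups in 1 fit Tlr2 was not called at 29M (adjusted p = 0.0596, edgeR), nor in DESeq2 with a zero-centred prior, which gave a log2FC of 0.24.

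At 24M the same gene was more scattered. In 3M single-end replicates 1 to 5 Tlr2 was at 1.91, 3.58, 1.87, 3.31 and 2.91 CPM. In 24M replicates 2, 3, 5 and 6 it was at 3.87, 2.99, 2.94 and 5.26 CPM, and in the mean of replicates 1 and 4 at 4.03 CPM. The groups overlapped, and 3 of the 5 aged samples lay above every 3M sample. The log2FC was 0.47 (SE 0.22, adjusted p = 0.190, edgeR), so Tlr2 was not called. The 29M effect of Tlr2 exceeded its 24M effect by 0.77 on the log2 scale (SE 0.35), and in edgeR's test of this difference it did not pass (unadjusted p = 0.0409, adjusted p = 0.460).

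Tlr4 (ENSMUSG00000039005, chromosome 4, 66827584 to 66930284) recognises bacterial lipopolysaccharide with the co-receptors Ly96 and Cd14. In 3M single-end replicates 1 to 5 it was at 1.64, 2.34, 1.52, 1.78 and 2.47 CPM. In 24M replicates 2, 3, 5 and 6 it was at 3.03, 3.09, 2.94 and 3.11 CPM, and in the mean of replicates 1 and 4 at 3.06 CPM. All 24M samples lay above all 3M samples, and they were closer together than the 3M samples. This gave a log2FC of 0.65 (SE 0.16, adjusted p = 0.0344, edgeR).
This call rested on single libraries. Tlr4 was called in 4 of the 11 fits that left out 1 library. In these fits 24M replicates 1 and 4 were left out separately, so that the other library stood for the pair. With both left out Tlr4 was not called (adjusted p = 0.0770, edgeR). By edgeR its adjusted p was 0.0810 without 3M single-end replicate 1, 0.0647 without replicate 3 and 0.0673 without replicate 4, and 0.0568, 0.0857, 0.0712 and 0.0603 without 24M replicates 1, 2, 3 and 6. The log2FC stayed between 0.57 and 0.75 in all 11 fits. The 2 libraries counted as 1 sample held 3.62 and 2.51 CPM of Tlr4, which is a wider gap than that between the 5 samples. At 29M Tlr4 was at 2.77, 2.66 and 2.18 CPM, against 1.61, 1.89 and 2.33 CPM at 3M, and these groups overlapped (log2FC 0.38, SE 0.23, adjusted p = 0.433, edgeR).

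Tlr1 and Tlr6, the partners of Tlr2, lie next to each other on chromosome 5 and had few counts. Tlr1 (64924679 to 64933563) had 4 to 13 counts in each 24M sample and 4, 11, 11 and 12 counts in 4 of the 3M single-end samples, but 51 counts (2.65 CPM) in 3M single-end replicate 2. Its log2FC was -0.24 at 24M (SE 0.63, adjusted p = 0.844, edgeR). Without 3M single-end replicate 2 it was 0.73 (adjusted p = 0.306, edgeR), so the direction depended on that library. At 29M all 3 samples of Tlr1 (0.672, 0.760 and 1.09 CPM) lay above all 3M samples (0.593, 0.261 and 0.539 CPM), with 31 counts against 17 in all.
Tlr6 (64952031 to 64960097) was at 0.514 ± 0.134 CPM in 3M single-end samples (SD, n = 5) and 0.603 ± 0.198 CPM at 24M (SD, n = 5). Its log2FC was 0.23 (SE 0.30, adjusted p = 0.650, edgeR). At 29M it was at 0.603 ± 0.162 CPM (SD, n = 3), against 0.466 ± 0.187 CPM at 3M (SD, n = 3). The transcripts of Tlr1 and Tlr6 are close copies, as 454 stretches of 50 bases occur in both, which is 13.6% of those in Tlr1 and 12.3% of those in Tlr6. A read that lies wholly within such a stretch, as a 50-base single-end read can, cannot be assigned to either gene. Tlr2, Tlr5, Tlr7, Tlr8, Tlr9 and Tlr13 shared no such stretch with another annotated gene.

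Tlr5, the receptor of bacterial flagellin (ENSMUSG00000079164, chromosome 1, 182954788 to 182976044), was not tested at either age. It was at 0.499 ± 0.103 CPM in 3M single-end samples (SD, n = 5) and 0.459 ± 0.0864 CPM at 24M (SD, n = 5), and the groups overlapped. In the paired-end samples it was at 0.485 ± 0.116 CPM at 3M and 0.708 ± 0.225 CPM at 29M (SD, n = 3 each). The ratio of summed counts, scaled to library size, was 0.909 at 24M (95% exact Poisson interval 0.575 to 1.42) and 1.44 at 29M (0.766 to 2.75), intervals that cover counting error only.

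**Figure D3:**
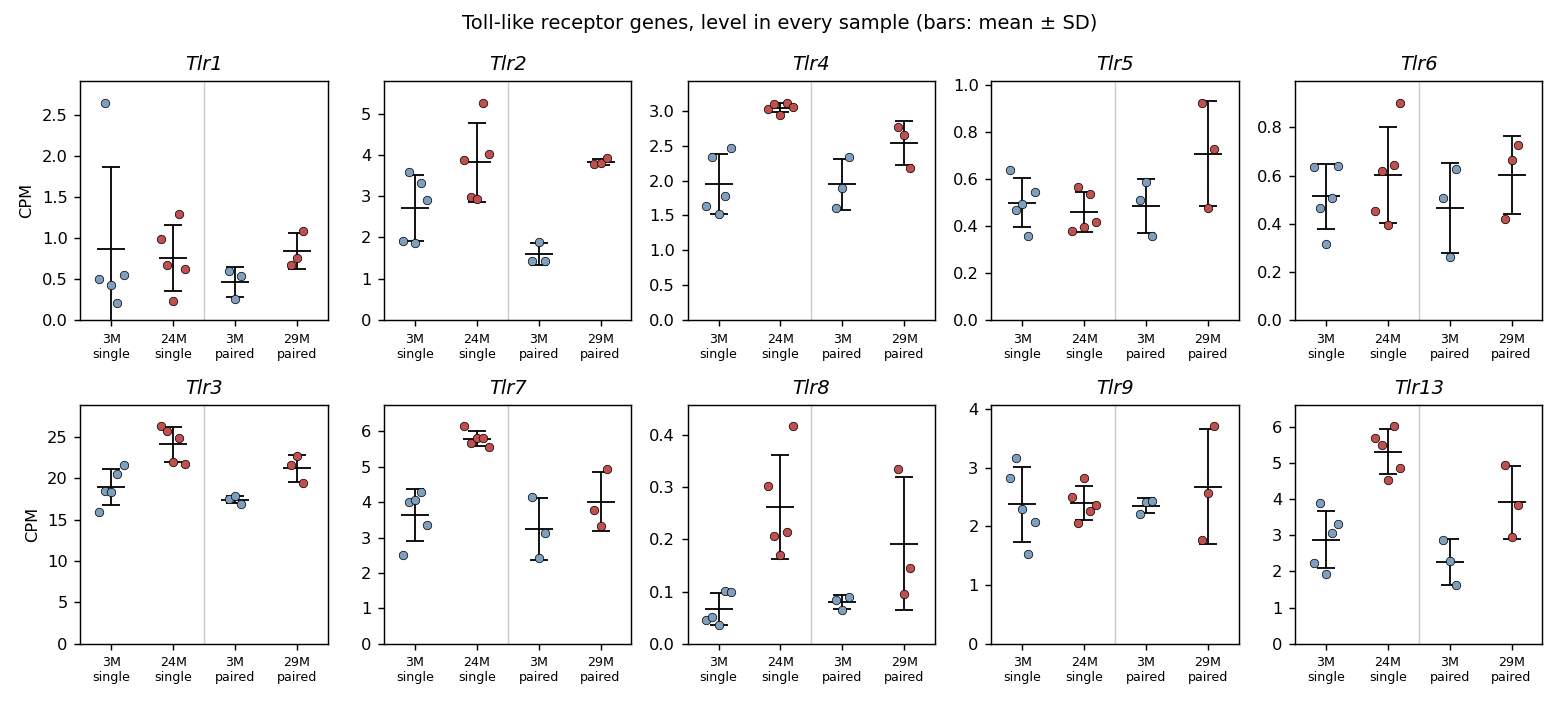
CPM of the 10 Toll-like receptor genes in each of the 16 samples, with the surface receptors in the upper row and the endosomal receptors in the lower row; blue points are 3M samples, red points aged samples, and bars give the mean and SD, with an axis of its own for each gene. The 24M samples of Tlr4, Tlr7 and Tlr13 and the 29M samples of Tlr2 lie above all 3M samples of their library type, and for Tlr1 a 3M single-end sample at 2.65 CPM lies above all other samples.

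Among the endosomal receptors, Tlr13 (ENSMUSG00000033777, chromosome X, 106143204 to 106160493), a receptor of bacterial ribosomal RNA, had the largest log2FC of the genes tested at 24M. In 3M single-end replicates 1 to 5 it was at 2.23, 3.89, 1.94, 3.05 and 3.31 CPM. In 24M replicates 2, 3, 5 and 6 it was at 5.68, 5.51, 4.52 and 6.01 CPM, and in the mean of replicates 1 and 4 at 4.86 CPM. The groups did not overlap. Tlr13 was 1.85-fold higher, a log2FC of 0.89 (SE 0.18, adjusted p = 0.0175, edgeR).
At 29M Tlr13 was at 4.95, 2.94 and 3.84 CPM, against 2.88, 2.29 and 1.62 CPM at 3M. These groups did not overlap either, although the lowest 29M sample lay close to the highest 3M sample. The log2FC was 0.79 (SE 0.25, adjusted p = 0.111, edgeR), which was not called. With no filter on low counts the adjusted p was 0.0130 (edgeR), and Tlr13 was then called at 29M. The 29M and 24M effects of Tlr13 differed by -0.10 on the log2 scale (SE 0.33, adjusted p = 0.945, edgeR).

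Tlr7 (ENSMUSG00000044583, chromosome X, 167304929 to 167330558) is a receptor of single-stranded RNA. In 3M single-end replicates 1 to 5 it was at 2.50, 3.996, 4.06, 4.28 and 3.36 CPM. In 24M replicates 2, 3, 5 and 6 it was at 6.14, 5.66, 5.82 and 5.80 CPM, and in the mean of replicates 1 and 4 at 5.56 CPM. Again the groups did not overlap, and the 24M samples lay within a narrower range. Tlr7 was 1.59-fold higher, a log2FC of 0.67 (SE 0.14, adjusted p = 0.0189, edgeR). At 29M Tlr7 was at 3.78, 3.32 and 4.93 CPM, against 4.15, 2.42 and 3.14 CPM at 3M, and the groups overlapped (log2FC 0.35, SE 0.23, adjusted p = 0.469, edgeR). The difference between the ages was -0.34 (SE 0.27, adjusted p = 0.678, edgeR).

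The 24M calls of Tlr7 and Tlr13 were lost in 1 of the 11 fits that left out 1 library, the fit without 24M replicate 2. The adjusted p was then 0.0599 for Tlr7 and 0.0563 for Tlr13 (edgeR), at log2FC values of 0.65 and 0.86. Because Tlr4 was not called there either, 0 Toll-like receptor genes were called at 24M without that library, in which red blood cell genes were highest. With 3M single-end replicate 4 also left out, a choice made after seeing the data, 0 were called. The log2FC values were then 0.63 for Tlr4, 0.71 for Tlr7 and 0.89 for Tlr13 (adjusted p = 0.149, 0.0751 and 0.0912, edgeR). When only 24M replicates 1 and 4 were both left out, Tlr7 and Tlr13 stayed called (adjusted p = 0.0465 and 0.0401, edgeR).

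**Figure D4:**
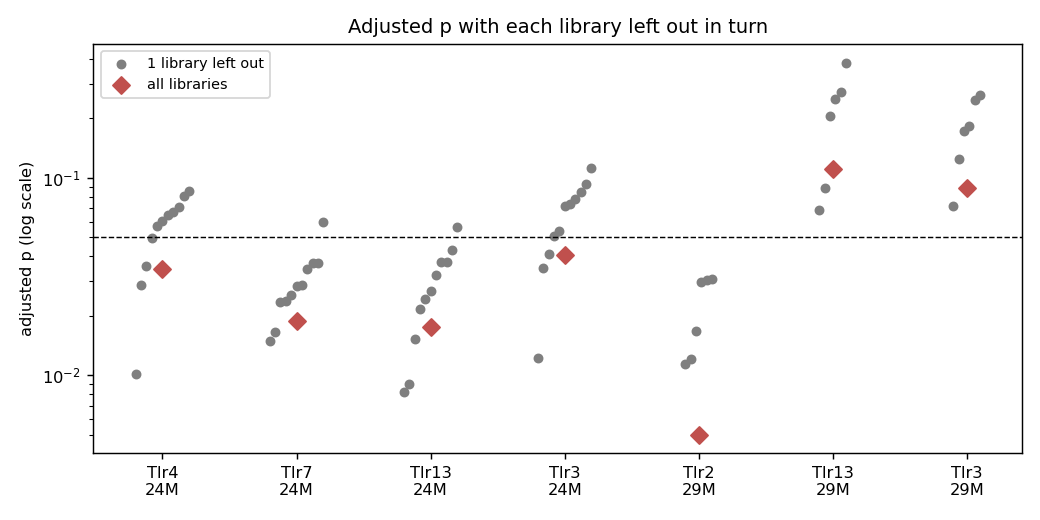
Adjusted p (edgeR, log axis) of the Toll-like receptor genes with the smallest values, with all libraries (diamonds) and with each library left out in turn (grey points, sorted by value; 11 fits at 24M, 6 at 29M); the dashed line is 0.05. Tlr2 at 29M lies under the line in all fits, Tlr7 and Tlr13 at 24M in all but 1, and Tlr4 at 24M lies above it in 7 of 11.

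Tlr3 (ENSMUSG00000031639, chromosome 8, 45395665 to 45411080), a receptor of double-stranded RNA, was higher by a smaller step that was measured more precisely. In 3M single-end replicates 1 to 5 it was at 15.9, 18.5, 18.3, 20.5 and 21.7 CPM. In 24M replicates 2, 3, 5 and 6 it was at 26.3, 25.7, 21.98 and 24.9 CPM, and in the mean of replicates 1 and 4 at 21.8 CPM. All 24M samples lay above all 3M samples, though the lowest and the highest were close. Its log2FC was 0.35 (SE 0.09, adjusted p = 0.0407, edgeR), which passed on p and stayed under the fold threshold, so Tlr3 was not called. With no fold threshold 4 of the 8 genes tested passed at 24M, where 3.21% of all genes passed in that direction. Tlr3 lost that pass in 8 of the 11 fits that left out 1 library. By edgeR its adjusted p was 0.0843, 0.0779, 0.0734 and 0.0539 without 3M single-end replicates 1 to 4, and 0.0506, 0.113, 0.0932 and 0.0721 without 24M replicates 1, 2, 3 and 6. At 29M Tlr3 was at 21.6, 22.7 and 19.4 CPM, against 17.5, 17.9 and 17.0 CPM at 3M, again without overlap (log2FC 0.28, SE 0.08, adjusted p = 0.0883, edgeR). With no fold threshold Tlr2 alone passed at 29M, against 2.32% of all genes.
The 29M effect of Tlr3 minus its 24M effect was -0.07 on the log2 scale (SE 0.14, adjusted p = 0.890, edgeR). An antisense gene, Gm45542, covers 381 exon bases of Tlr3. The strand setting of the counting is not named in the sources used here, which list the mode as the one setting changed from the defaults. Gm45542 was not among the identifiers counted. If strand was not used, its reads from that part could be counted as Tlr3 and cannot be told apart.

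Tlr8 (ENSMUSG00000040522, chromosome X, 167242696 to 167264329) lies beside Tlr7 and was too low to be tested. It had 1 or 2 counts in each 3M single-end library and 2 to 6 counts in each 24M sample. In CPM, the 24M samples (0.303, 0.206, 0.169 and 0.215, and 0.417 in the mean of replicates 1 and 4) all lay above the highest 3M sample (0.102 CPM). Replicate 6 at 24M and 3M single-end replicates 4 and 5 held 2 counts each, so that the separation of these came from scaling to library size. The libraries of the merged pair held 0.284 and 0.475 CPM, and their mean count was rounded up to a whole number. Summed over the 5 samples of each group there were 19 counts at 24M and 7 at 3M, a ratio of 3.99 once scaled to library size (95% exact Poisson interval 1.61 to 11.2, counting error only). The two-sided exact permutation test over samples gave p = 0.00794 (n = 5 and 5), the smallest that 252 splits allow, unadjusted and among 6 such tests of untested genes. At 29M Tlr8 had 7 counts, against 3 at 3M. The ratio was 2.45 (interval 0.560 to 14.7), and the 29M samples were all higher in CPM. The lowest 29M library and each 3M library held 1 count, however, so that the separation of these (0.0950 against at most 0.0898 CPM) came from scaling to library size. With 3 samples against 3 the exact permutation test cannot go below 0.1, the value it gave for Tlr8 and Tlr1.

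Tlr9, the receptor of unmethylated CpG DNA (ENSMUSG00000045322, chromosome 9, 106222598 to 106226883), differed little between the groups. It was at 2.38 ± 0.640 CPM in 3M single-end samples (SD, n = 5) and 2.40 ± 0.287 CPM at 24M (SD, n = 5), a log2FC of 0.02 (SE 0.19, adjusted p = 0.967, edgeR). In the paired-end samples it was at 2.35 ± 0.125 CPM at 3M and 2.68 ± 0.973 CPM at 29M (SD, n = 3 each). Of the 29M samples, 2.56 and 3.70 CPM lay above and 1.76 CPM below all 3M samples, and the log2FC was 0.21 (SE 0.26, adjusted p = 0.743, edgeR). Without 29M replicate 3 it was -0.13. At 24M it ranged from -0.12 to 0.13 over the alternatives tried, so no direction can be given for Tlr9.

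At 24M the aged and 3M samples were fully separated, with the aged ones higher, for 5 of the 10 genes, Tlr3, Tlr4, Tlr7, Tlr8 and Tlr13, and 4 of these were among the 8 genes tested. Of all genes tested 3.15% showed this. At 29M it held for Tlr1, Tlr2, Tlr3, Tlr8 and Tlr13, of which 3 were among the 6 genes tested, against 11.9% of all genes. For Tlr8 the full separation rested on scaling to library size at both ages. Its lowest 29M library and its 3M paired-end libraries had 1 count each. In the single-end experiment 24M replicate 6 and 3M replicates 4 and 5 had 2 counts each. The difference between the 29M and 24M effects passed an adjusted p of 0.05 for 0 of the 7 Toll-like receptor genes tested and for 0% of all 16055 genes (edgeR, smallest adjusted p over all genes 0.392). An unadjusted p under 0.05 was reached by 1674 of these genes, Tlr2 among them, and DESeq2 called 1 gene, which was no Toll-like receptor gene. The calls of different genes at 24M and at 29M therefore do not show that the ages differ.

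The remaining receptors of the mouse, Tlr11 and Tlr12, were also low. Tlr11 had 0 or 1 counts in each single-end sample and 0 counts in all 6 paired-end libraries. Tlr12 was at 0.786 ± 0.182 CPM in 3M single-end samples and 1.079 ± 0.0965 CPM at 24M (SD, n = 5 each; log2FC 0.49, SE 0.21, adjusted p = 0.156, edgeR), and it was not tested at 29M.

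In these bulk samples, more cells of a type and more RNA per cell cannot be told apart. Of 12 microglia markers 11 had a log2FC above 0 at each age, and 1 was called at each, P2ry12 at 24M and Tmem119 at 29M. Their median log2FC was 0.32 at 24M and 0.33 at 29M. The 12 markers summed to 428 to 496 CPM in 3M single-end samples and 536 to 566 CPM at 24M, a ratio of means of 1.19. In the paired-end samples they summed to 424 to 431 CPM at 3M and 527 to 545 CPM at 29M, a ratio of 1.26. No marker was at 0 in any sample. The 10 Toll-like receptor genes summed to 28.8 to 39.1 CPM in 3M single-end samples and 42.2 to 50.05 CPM at 24M. In the paired-end samples they summed to 29.5 to 31.4 CPM at 3M and 40.0 to 41.0 CPM at 29M, and neither comparison overlapped.

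**Figure D5:**
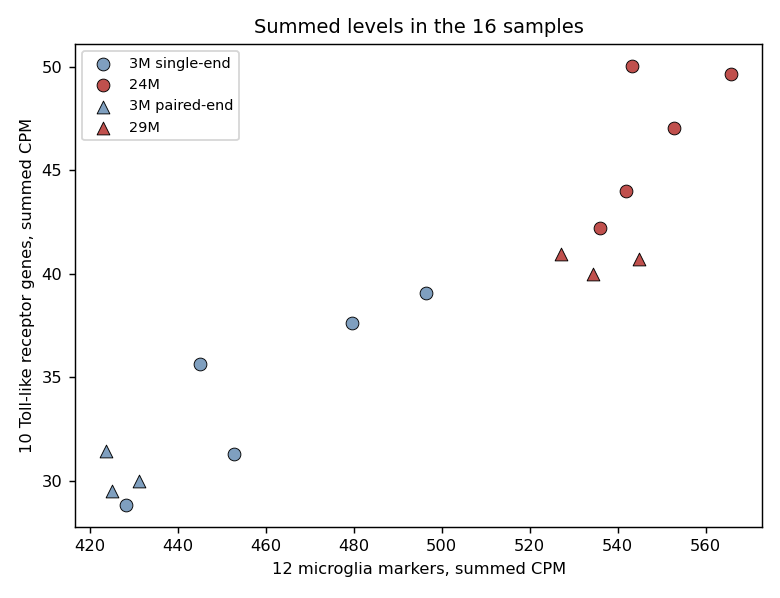
Summed CPM of the 10 Toll-like receptor genes (vertical axis) against the summed CPM of 12 microglia markers (horizontal axis) in the 16 samples; circles are single-end and triangles paired-end samples, blue 3M and red aged. Aged samples are higher on both axes, at 40.0 CPM or more for the receptor genes and 527 CPM or more for the markers.

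Set against the marker sum of the same sample, the receptor genes had unlike ratios. Per 1000 CPM of microglia markers, Tlr13 was at 6.22 ± 1.44 in 3M single-end samples and 9.70 ± 1.03 at 24M (SD, n = 5 each), a ratio of means of 1.56. The ratio was 1.34 for Tlr7, 1.32 for Tlr4, 1.19 for Tlr2, 1.07 for Tlr3 and 0.851 for Tlr9 at 24M. At 29M Tlr2 was at 7.15 ± 0.0422, against 3.72 ± 0.580 at 3M (SD, n = 3 each), a ratio of 1.92, while Tlr13 had 1.38, Tlr4 1.04, Tlr7 0.984, Tlr3 0.971 and Tlr9 0.904. The aged and 3M samples did not overlap on this scale for Tlr4, Tlr7 and Tlr13 at 24M and for Tlr2 at 29M. For the other genes and ages given they overlapped, Tlr2 at 24M and Tlr13 at 29M among them. These ratios were not tested, and the part of the markers in the age differences was not tested.

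Markers of other blood, immune and glial cells were also summed. Border macrophage markers summed to 7.30 to 11.1 CPM in 3M single-end samples, 8.91 to 16.1 at 24M, 7.37 to 10.7 in 3M paired-end samples and 9.12 to 15.9 at 29M. All 6 were above 0 on the log2 scale at 24M, as were the 3 tested at 29M, and 0 were called. Monocyte and neutrophil markers summed to at most 2.59 CPM at 3M and to at most 5.76 CPM in aged samples, and T and B cell markers to at most 4.02 CPM in any sample. Of their defining markers, Camp was at 0 in 6 of 16 samples and Cd3d in 5. Red blood cell genes were above 0 on the log2 scale for all 5 genes at both ages and overlapped between ages, at 53.2 to 108.3 CPM in 3M single-end samples, 76.3 to 543.9 at 24M, 70.5 to 83.6 in 3M paired-end samples and 75.7 to 164.7 at 29M. At 29M 2 of them, Hba-a1 and Alas2, were called higher. Astrocyte markers, 6 genes, summed to 5033 to 5749 CPM in 3M single-end samples and 5517 to 6119 CPM at 24M, and to 4876 to 4941 CPM at 3M and 5300 to 5325 CPM at 29M in the paired-end samples, where the groups did not overlap. Gfap, a marker of reactive astrocytes, was called higher at 24M (log2FC 0.66, adjusted p = 8.8e-05, edgeR) and at 29M (log2FC 0.80, adjusted p = 7.42e-07, edgeR), while the median of the 6 genes was 0.052 and 0.046. The part of all these cell types in the results was not tested.

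Of the genes that act with the Toll-like receptors, a list of 67, 54 were tested at 24M and 51 at 29M. At 24M 1 was called higher, the protease Ctss, and 0 were called lower, where 1.34% of all genes were called higher and 0.638% lower. At 29M 3 were called higher, Ctss, Ly86 and Irf7, and 0 lower, where 1.34% of all genes were called higher and 0.113% lower. Before adjustment, edgeR's p was under 0.05 for 17 higher and 5 lower genes at 24M and for 12 higher and 0 lower genes at 29M. The share of all genes at this unadjusted threshold was not worked out, so these counts can show neither an excess in the list nor the lack of it. The median log2FC of the list genes tested was 0.08 at 24M and 0.06 at 29M, with 34 and 38 genes above 0. The 24M count moved with single libraries, since 8 genes were called without 3M single-end replicate 2, 6 without replicate 5, 3 without 24M replicate 5 or 6, and 2 without 3M single-end replicate 1, 3 or 4.

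Among the 9 chaperones and endosomal proteins, Ctss is a protease of the endosome that takes part in processing the endosomal receptors. In 3M single-end replicates 1 to 5 Ctss was at 48.1, 66.3, 55.3, 60.8 and 61.3 CPM. At 24M all 5 samples were between 96.0 and 119.9 CPM (log2FC 0.90, SE 0.09, adjusted p = 0.000109, edgeR). At 29M it was at 92.7, 91.9 and 85.4 CPM, against 50.3, 52.3 and 50.7 CPM at 3M (log2FC 0.82, SE 0.05, adjusted p = 3.43e-06, edgeR). The groups lay far apart at both ages. Unc93b1, which carries the endosomal receptors from the endoplasmic reticulum, had a log2FC of 0.33 at 29M, under the fold threshold (SE 0.08, adjusted p = 0.0390, edgeR).

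Among the 6 co-receptors, Ly86 forms a complex with the Tlr4-related protein Cd180. It was at 7.63, 9.08 and 7.72 CPM at 3M and 12.2, 13.1 and 13.1 CPM at 29M (log2FC 0.64, SE 0.11, adjusted p = 0.00540, edgeR). At 24M it was at 14.7 ± 1.89 CPM, against 10.6 ± 1.64 CPM at 3M (SD, n = 5 each), with a log2FC of 0.48 just under the fold threshold (adjusted p = 0.0345, edgeR). Of the 8 transcription factors Irf7, which acts downstream of Tlr7 and Tlr9 and is itself induced by interferon, was called at 29M. It was at 8.06, 4.37 and 6.75 CPM, against 2.03, 1.96 and 2.60 CPM at 3M (log2FC 1.56, SE 0.24, adjusted p = 0.00274, edgeR). At 24M Irf7 had a log2FC of 0.95 (SE 0.32, adjusted p = 0.0903, edgeR), with 8.19 CPM in 24M replicate 2 and at most 4.58 CPM in the other samples.

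In the other roles no gene was called at either age. Of the 5 adaptors Myd88 had the smallest p at 29M, with a log2FC of 0.43 (SE 0.17, adjusted p = 0.211, edgeR), and it had -0.11 at 24M. Of the 15 kinases and ubiquitin ligases it was Irak1 (0.10, SE 0.06, adjusted p = 0.420, edgeR), and of the 7 inhibitors Irak3 (0.43, SE 0.27, adjusted p = 0.443, edgeR). Of the 17 target genes only 4 were tested at 24M and 3 at 29M. Ptgs2, an enzyme of prostaglandin synthesis that is also induced by neuronal activity, had a log2FC of 0.32 at 29M (SE 0.06, adjusted p = 0.0129, edgeR) and 0.49 at 24M (SE 0.10, adjusted p = 0.0220, edgeR), both under the fold threshold. The other targets tested did not pass. At 24M these were the co-stimulatory gene Cd86 (log2FC 0.50, adjusted p = 0.0699, edgeR), the cytokine gene Il1a (0.96, adjusted p = 0.0824, edgeR) and the chemokine gene Ccl3 (0.93, adjusted p = 0.242, edgeR). At 29M they were Cd86 (log2FC 0.80, adjusted p = 0.0653, edgeR) and the chemokine gene Cxcl10 (1.52, adjusted p = 0.122, edgeR). Cd86 was the one of these with all aged samples above all 3M samples at both ages. Untested at 24M, Cxcl10 was at 0.278 ± 0.0560 CPM at 3M and 1.45 ± 1.03 CPM at 24M (SD, n = 5 each). Tnf had a mean of at most 0.13 CPM in each group.

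Of 12 other innate sensors 10 were tested at each age. At 24M 2 were called higher and at 29M 3, with 0 lower at each age, and over all genes 1.34% were called higher at each age. Clec7a, a lectin receptor of fungal glucans that is known from activated microglia, was at 0.564 ± 0.167 CPM in 3M single-end samples and 3.22 ± 1.09 CPM at 24M (SD, n = 5 each; log2FC 2.53, adjusted p = 0.000310, edgeR). At 29M its log2FC was 3.21 (SE 0.29, adjusted p = 4.42e-05, edgeR). Ddx58, a cytosolic RNA sensor, was called at both ages, at 24M only just, with a log2FC of 0.54 (adjusted p = 0.0496, edgeR). In 24M replicate 2 it was at 17.1 CPM and in the other 24M samples at 9.68 to 11.2 CPM, against at most 9.39 CPM at 3M. Its log2FC at 29M was 1.02 (adjusted p = 0.00182, edgeR). Ifih1, a sensor of long double-stranded RNA, was called at 29M (log2FC 1.03, adjusted p = 0.00236, edgeR) and was not called at 24M (0.43, adjusted p = 0.137, edgeR). In edgeR's test of the difference between the ages, as given above, no gene passed.

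The pattern of each receptor gene over the 16 samples was compared with 14308 genes of at least 1 CPM, after centring log2 CPM within each library type. The points share libraries and the age difference, so these correlations are a description. Close to Tlr2 were Trf (r = 0.89) and Ifih1 (0.89). For Tlr13 the closest genes were Naip2 (r = 0.89), the complement gene C3 (0.88) and Ikzf1 (0.88). For Tlr7 they were Runx1 (r = 0.86), Fech (0.86) and Gm13688 (0.84). For Tlr3 they were Ccdc50 (r = 0.92), Dync1li2 (0.91) and Zdhhc20 (0.91), and close to Tlr4 were Riok3 (0.94) and Eif5 (0.93). Tlr9 had lower values, with Gm14004 (r = 0.78), Plpp3 (0.76) and Emc1 (0.75).
Among themselves, Tlr2, Tlr3, Tlr4, Tlr7 and Tlr13 had correlations between 0.53 and 0.82 over these samples. The highest was that of Tlr3 and Tlr4 (r = 0.82), and the lowest that of Tlr2 and Tlr7 (r = 0.53). Tlr9 stood apart from all 5, with r between -0.23 and 0.07.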

How the data were processed

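Hippocampal polyA RNA of 17 libraries was measured. Per the labels and the study's methods, the authors prepared TruSeq libraries, aligned reads with STAR 2.3.0 to GRCm38.p2, counted reads per gene with HTSeq in intersection-nonempty mode and deposited raw counts, without normalization. Lines that name no gene stayed out of library sizes; between 8.59% and 15.87% of reads per library fell on no feature. Of 38355 identifiers 36602 were named by GENCODE M21, which also gave positions and exon lengths.

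The quasi-likelihood test of edgeR 4.0.16 (R 4.3.3) was run on these counts after TMM scaling and filterByExpr with its defaults, and p was adjusted over all genes tested. SE was taken as log2 fold change, without its sign, over the root of F. DESeq2 1.42.0 was an alternative, as were other size factors, filters and thresholds, all groups in 1 fit, the replicate number as a block, the 24M pair kept apart or left out, and each library left out. Leaving out both libraries that stand apart was added after seeing the data. The steps were tested on simulated data, with a planted log2 change larger than that of any receptor gene tested. The simulation thus does not show how often changes as small as those of the receptor genes are found. Same-numbered samples did not deviate together (r between -0.179 and 0.113), so numbers were not taken to pair samples.

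The genes and lists were chosen with earlier results of these data known. The genes named are the 10 receptors, genes of the lists called at either age, in each role without a call the gene with the smallest p at 29M, and for each receptor tested at both ages the 3 genes closest in pattern, some of which are not reported here. Unc93b1, Gfap, Tnf and the other targets tested were named after their values were seen. Samples are taken as separate mice as the labels number them. The number of counts limits the precision of genes under 1 CPM.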

Additional observations from a re-analysis of the deposited data

Results flagged for a closer look

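In 20 groups of receptor values (10 genes in the 3M single-end and 24M groups of 5 samples), 1 sample stood apart from its group by a gap above the 95% limit of Dixon's ratio, where chance flags about 1 in 20 groups. Tlr1 was at 2.65 CPM in 3M single-end replicate 2, and the nearest of the other 3M samples was at 0.543 CPM. The gap was 0.861 of the range, against a limit of 0.71 for 5 samples.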

How the results depend on the processing

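The count of Toll-like receptor genes called at 24M, 3 with all libraries, was 0 with both libraries that stand apart left out and 0 with the replicate number as a block (replicate block, 4 shared numbers), and 0 to 3 with each library left out. Samples with the same number did not deviate together, so the block is not taken as a paired design, and at 29M it left the count of 1 in place. Adjusted p under the block was 0.102 for Tlr13, 0.0828 for Tlr7 and 0.185 for Tlr4 (edgeR). At 29M the count was 2 with no filter on low counts, 0 with all 4 groups in 1 fit (Tlr2 adjusted p = 0.0596, edgeR), 0 in DESeq2 with a zero-centred prior, where the median fell to 0.0559 and Tlr2 to 0.24, and 1 in each fit without 1 library. Leaving out 1 library gave a median of 0.32 to 0.59 at 24M and 0.33 to 0.42 at 29M.

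Pathway genes called at 24M, 1 with all libraries, were 3 with no fold threshold, 4 in DESeq2 with no prior, 2 with the prior, 2 with no filter, 6 with all groups in 1 fit, 6 with the 24M pair kept apart, 2 with it left out, and 1 to 8 with each library left out. At 29M, from 3, they were 5 with no fold threshold, 1 with the prior, 6 with no filter, 1 with all groups in 1 fit and 3 to 4 without 1 library. The difference between ages was passed by 0 receptor genes in all fits run, and in DESeq2 their adjusted p was NA.

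The log2 fold change of Tlr1 at 24M, -0.24 with all libraries, was -0.47 to 0.73 with each library left out (0.73 without 3M single-end replicate 2, 0.02 when 24M replicate 5 was dropped). That of Tlr9 at 24M, 0.02, was -0.074 with the replicate block and -0.12 without both libraries that stand apart, and -0.10 to 0.13 with each library left out. At 29M that of Tlr9, 0.21, was -0.13 to 0.43 with each left out, -0.13 without 29M replicate 3. Tlr2, Tlr3, Tlr4, Tlr6, Tlr7 and Tlr13 kept their direction in all fits in which they were tested. The cause of these shifts was not tested.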
